A study of Homo sapiens with 6 samples.

Results

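The open chromatin of 8 genes on band 9p24 of chromosome 9 was examined by ATAC-seq in 3 esophageal cell lines. The genes were JAK2, CD274, PDCD1LG2, RIC1, ERMP1, RANBP6, IL33 and KDM4C, of 20163 protein-coding genes in the annotation. Their peaks were those overlapping a gene body extended by 10 kb to each side, and the other peaks of chr9:4900000-7200000 (hg19) were taken with them. This segment of 2.3 Mb held 25 of the 29879 peaks of all libraries, 14 of them at the 8 genes, and they merged into 19 of 23972 regions. The segment was chosen by the local background of the KYSE-150 peaks, which was high there. Those backgrounds, and the fold enrichments and peak counts computed with them, are therefore given as descriptions with no test.

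ATAC-seq uses the Tn5 transposase, which inserts sequencing adapters where DNA is not wrapped tightly, so that promoters and enhancers in use collect many short fragments. HET-1A is a non-cancerous esophageal epithelial line, grown in the bronchial epithelial medium BEBM with its additives. KYSE-30 and KYSE-150 are lines of esophageal squamous cell carcinoma, both grown in RPMI/F12 with serum. No line was treated. Each had 2 libraries, numbered 1 and 2 for HET-1A, 4 and 6 for KYSE-30, and 7 and 8 for KYSE-150, and nothing in the labels says whether the libraries of a line came from separate cultures.

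The segment joins genes of immune signalling with genes of general cell upkeep. CD274 encodes PD-L1 and PDCD1LG2 encodes PD-L2, the ligands by which a cell engages PD-1 on T cells. JAK2 is a tyrosine kinase bound to cytokine receptors. Interferon gamma signals through JAK1 and JAK2 and induces IRF1 and, through it, CD274. IL33 is an alarmin cytokine of barrier epithelia, read by a receptor of IL1RL1 and IL1RAP. KDM4C removes methyl groups from lysine 9 of histone H3 and was first described as a gene amplified in squamous cell carcinoma. RIC1 acts with RGP1 to activate the Golgi GTPase RAB6A, ERMP1 is a metallopeptidase of the endoplasmic reticulum, and RANBP6 belongs to the importin family. The band is known to be gained as a block in some lymphomas and carcinomas.

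The peak lists differed widely in length. HET-1A held 168 peaks in library 1 and 15979 in library 2, KYSE-30 held 1255 in library 4 and 11671 in library 6, and KYSE-150 held 547 in library 7 and 259 in library 8. Counts of peaks are thus read within a library. Of 8 epithelial markers (KRT5, KRT14, TP63, SOX2, KRT8, KRT18, CDH1 and EPCAM), 5 had a peak within 10 kb in HET-1A library 2. KYSE-30 had 3 in library 6 and 1 in library 4, and the other 3 libraries had 0, so the short lists could not check the labels. In HET-1A library 2 and KYSE-30 library 6, 1 of 4 fibroblast markers had a peak, COL1A1 in HET-1A and PDGFRB in KYSE-30. Of 2 endothelial markers, VWF and CDH5 had one in HET-1A library 2 and VWF in KYSE-30 library 6. None of these fibroblast and endothelial markers had a peak in the other 4 libraries, and their part in the results was not tested.

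Summit tags and local background were worked back for each peak from its deposited enrichment and p-value. A tag here is a read extended to 200 bp, and the local background is the mean number of tags expected at a position from the surrounding 10 kb, never under the mean of the whole genome. By library, in the order above, the genome background was 1.88 and 3.34 tags for HET-1A, 2.37 and 1.49 for KYSE-30, and 2.80 and 2.64 for KYSE-150. Local background divided by genome background is called the relative background, and summit tags divided by genome background the height, so that both are free of library depth. The fold enrichment is summit tags over local background with 1 added to each. Intervals of tags and heights are exact Poisson 95% intervals and cover counting error only.

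The 5 sequences below show the DNA under the peaks on which the account turns, from the forward strand of hg19 and without untranslated exons. The first is the part of the KYSE-30 peak upstream of the JAK2 coding transcript's start, chr9:4984766-4984867, in which capitals mark 1 AP-1 core and 2 SP1 boxes, the second box being on the reverse strand. In the others capitals mark CpG dinucleotides. The CD274 sequence is the whole KYSE-30 peak upstream of that gene, chr9:5446446-5446709. The RIC1 sequence is what the peaks of KYSE-30 library 6 and both KYSE-150 libraries share, chr9:5628757-5628932. The ERMP1 sequence, chr9:5832673-5832963, is from the KYSE-150 library 7 peak and includes coding sequence, and the KDM4C sequence, chr9:6757562-6757640, is the upstream end of the part shared by the HET-1A and KYSE-30 peaks.
JAK2: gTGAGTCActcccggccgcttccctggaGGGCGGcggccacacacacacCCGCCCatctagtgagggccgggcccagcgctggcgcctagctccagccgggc
CD274: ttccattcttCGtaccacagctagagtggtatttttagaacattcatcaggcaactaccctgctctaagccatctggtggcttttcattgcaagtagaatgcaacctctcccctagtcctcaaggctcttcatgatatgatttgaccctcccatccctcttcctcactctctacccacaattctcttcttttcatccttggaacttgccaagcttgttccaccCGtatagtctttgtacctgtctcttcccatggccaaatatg
RIC1: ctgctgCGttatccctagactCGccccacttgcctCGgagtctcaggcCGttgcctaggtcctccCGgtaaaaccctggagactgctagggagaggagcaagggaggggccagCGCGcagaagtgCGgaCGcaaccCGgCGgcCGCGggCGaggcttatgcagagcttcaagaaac
ERMP1: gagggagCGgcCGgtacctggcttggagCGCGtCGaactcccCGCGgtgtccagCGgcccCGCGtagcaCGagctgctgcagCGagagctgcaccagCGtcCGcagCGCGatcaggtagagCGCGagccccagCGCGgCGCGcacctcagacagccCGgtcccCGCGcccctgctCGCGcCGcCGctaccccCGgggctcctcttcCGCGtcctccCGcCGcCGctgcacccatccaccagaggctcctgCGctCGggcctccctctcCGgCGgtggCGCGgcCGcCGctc
KDM4C: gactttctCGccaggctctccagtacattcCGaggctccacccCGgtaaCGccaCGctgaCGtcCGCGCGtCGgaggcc

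These sequences differ in base composition. The ERMP1 stretch held 43 CpG in 291 bp and 76.6% G and C, and the RIC1 stretch 14 CpG in 176 bp and 64.2%. The KDM4C stretch held 10 CpG in 79 bp. The CD274 stretch stood apart with 2 CpG in 264 bp and 45.5% G and C.

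Of the 8 genes, RIC1 and KDM4C had a peak at the start of the gene in both KYSE-150 libraries. KDM4C was also open in HET-1A library 2 and KYSE-30 library 6, and RIC1 in KYSE-30 library 6. HET-1A library 2 and KYSE-30 library 6 each had a peak near the JAK2 start, the latter also one upstream of CD274, and ERMP1 and RANBP6 had peaks in KYSE-150 library 7. PDCD1LG2 and IL33 had none in any of the 6 libraries. In all, 3 of the 8 genes had a peak in HET-1A library 2, where 51.1% of all protein-coding genes did, and 4 of 8 in KYSE-30 library 6, where 41.6% did. In KYSE-150 it was 4 of 8 in library 7, against 2.89% of all genes, and 2 of 8 in library 8, against 0.898%. None of the 8 had a peak in HET-1A library 1, against 0.471% of all genes, or in KYSE-30 library 4, against 6.53%. The genes were picked from a stretch singled out in KYSE-150, so nothing is read from the excess there.

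**Figure D1:**
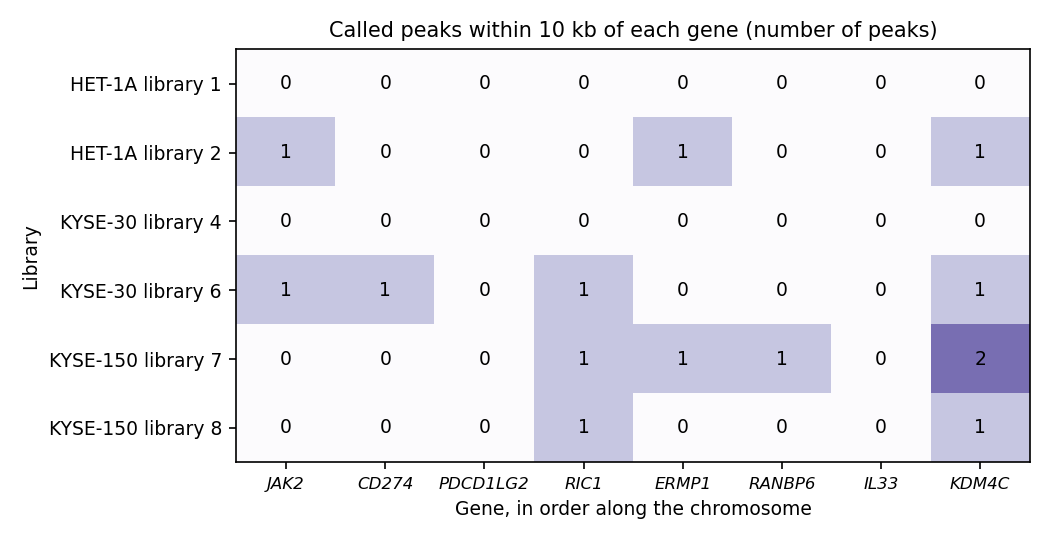
Number of peaks within 10 kb of each gene, the 6 libraries in rows and genes in columns. KDM4C has peaks in 4 libraries and RIC1 in 3, and the columns of PDCD1LG2 and IL33 are without peaks.

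Of the ligands, CD274 had a single peak, in KYSE-30 library 6. CD274 (ENSG00000120217, chr9:5450503-5470566, forward strand) was flanked by this peak in intergenic sequence, its summit 4.01 kb upstream of the start of the canonical transcript. It had 12 tags at the summit (6.2 to 21.0) over a local background of 1.49, a fold enrichment of 5.23 and a q-value of 1.69e-05. Among all peaks of that library its fold enrichment stood at percentile 42.1 and its height of 8.07 at percentile 10.8. The same peak lies within 10 kb of PLGRKT, a plasminogen receptor gene, and the lists do not say which gene it belongs to. In KYSE-150 the nearest peaks to the CD274 start were 87.2 kb away in library 7 and 178 kb away in library 8.

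PDCD1LG2 (ENSG00000197646, chr9:5510531-5571282, forward strand) and IL33 (ENSG00000137033, chr9:6215786-6257983, forward strand) were without peaks. The peak nearest to the PDCD1LG2 start was 64.0 kb off in KYSE-30 library 6, 118 kb in both KYSE-150 libraries and 376 kb in HET-1A library 2. A further KYSE-30 peak lay 15.8 kb beyond the gene's end, just outside the 10 kb limit, within the lncRNAs ENSG00000231509 and ENSG00000286162, and had 14 tags and a fold enrichment of 5.81. For IL33 the nearest peak was 113 kb from the start in HET-1A library 2 and 351, 208 and 542 kb in KYSE-30 library 6 and KYSE-150 libraries 7 and 8. No called peak is not the same as closed chromatin. At the genome background a peak needed at least 12 tags, a height of 3.59, to be listed in HET-1A library 2, and a height of 4.64 and 4.93 in KYSE-150 libraries 7 and 8. At 4 times the genome background these limits rose to 10 and 10.6 in KYSE-150, so that a peak as high as that of CD274 in KYSE-30 would have been listed at the former level and not at the latter.

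JAK2 (ENSG00000096968, chr9:4984390-5129948, forward strand) had listed peaks near its start in HET-1A library 2 and in KYSE-30 library 6. They were neighbouring but separate. The HET-1A library 2 peak, chr9:4985172-4985371, had its summit 17 bp inside the canonical transcript and its DNA is annotated as UTR. It was weak, with 14 tags (7.65 to 23.5) over 3.34, a fold enrichment of 3.45 and a height of 4.19, and only 0.407% of the library's peaks were lower. The KYSE-30 library 6 peak, chr9:4984634-4984867, lay 304 bp upstream of it. Its summit was 519 bp before the canonical start, in the UTR of a longer transcript, with 18 tags (10.7 to 28.5) over 1.60, a fold enrichment of 7.31 and a height of 12.1. This was the highest fold enrichment of the segment in any library, at percentile 84.7 of its own. The 200 bp around that summit held the AP-1 core, SP1 and CTCF letters, and those around the HET-1A summit held no searched motif. At the genome background a listed peak in KYSE-30 library 6 needed a height of 5.38. One as low as that of HET-1A would have been missed there, so its absence from the KYSE-30 list is not read as a difference.

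No KYSE-150 peak lay near JAK2. The closest were 378 kb from its start in library 7 and 281 kb in library 8. Between the library 8 peak in an intron of SLC1A1, outside the segment, and the next one lay 773 kb without a peak, with JAK2 in it. Over this gap the relative background went from 1.00 to 3.96, and where it changed is not known from the lists. A peak of the KYSE-30 height of 12.1 would have passed at the genome background in both KYSE-150 libraries and would have been under the limits of 13.2 and 14 at 6 times that level.

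RIC1 (ENSG00000107036, chr9:5629025-5776557, forward strand) had the highest KYSE-150 peak of the segment in each library. The peaks began within the lncRNA ENSG00000286162, just upstream of the gene. Library 7 had 59 tags at the summit (44.9 to 76.1) over a local background of 18.8, and library 8 had 46 (33.7 to 61.4) over 14.9. KYSE-30 library 6 had 13 tags (6.92 to 22.2) over 1.49. HET-1A library 2, the longest list, had no peak within 257 kb of the RIC1 start. A height of 3.59 would have sufficed there at the genome background, and the KYSE-30 height of 8.74 had an interval of 4.65 to 14.9.

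The RIC1 peak is described on both scales. Its fold enrichment was 3.04 and 2.95 in KYSE-150 libraries 7 and 8 and 5.63 in KYSE-30 library 6. Its height was 21.1 (16.0 to 27.2) and 17.5 (12.8 to 23.3) in KYSE-150, and 8.74 in KYSE-30. At 4 times the genome background no KYSE-150 peak under a height of 10 and 10.6 would have been listed, so any peak listed over the background at RIC1 was bound to be higher than that of KYSE-30, and nothing is read from the order. Within library 7 the fold enrichment was at percentile 3.66 and the height at percentile 96.0, and within library 8 these were 5.79 and 89.2.

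KDM4C (ENSG00000107077, chr9:6720863-7175648, forward strand) was the gene open in most libraries, with peaks near its start in 4. These merged into a single region, chr9:6757545-6758202. The KYSE-30 peak, chr9:6757545-6757939, ended before the canonical start at 6757973, which the HET-1A and KYSE-150 peaks covered. HET-1A library 2 had 36 tags (25.2 to 49.8) over 5.00, and KYSE-30 library 6 had 14 (7.65 to 23.5) over 1.80. KYSE-150 had 38 (26.9 to 52.2) over 11.8 in library 7 and 34 (23.6 to 47.5) over 9.78 in library 8. The fold enrichment was 6.17 in HET-1A, 5.36 in KYSE-30, and 3.05 and 3.25 in KYSE-150. Heights were closer together, at 10.8 (7.54 to 14.9), 9.41 (5.14 to 15.8), 13.6 (9.61 to 18.6) and 12.9 (8.93 to 18.0), and all 4 intervals overlap. Within their own libraries these heights were less alike, at percentiles 80, 25.9, 92 and 80.7. These intervals cover counting error only, and a difference between the lines was not tested. At 4 times the genome background, near that of the KYSE-150 peaks here, a listed peak needed a height of 10 and 10.6. The KYSE-150 heights are thus partly set by the background, and nothing is read from their order.

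KYSE-150 library 7 had a further peak inside KDM4C, chr9:6967781-6968060, in an intron that also holds the lncRNA ENSG00000224972. It lay 210 kb from the library's start-site peak and had 23 tags (14.6 to 34.5) over 6.78, a fold enrichment of 3.09 and a q-value of 3.90e-03. Its relative background of 2.42 was the lowest of the KYSE-150 peaks of the segment, and its 200 bp held 33.0% G and C and 1 CpG. No other library had a peak there.

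**Figure D2:**
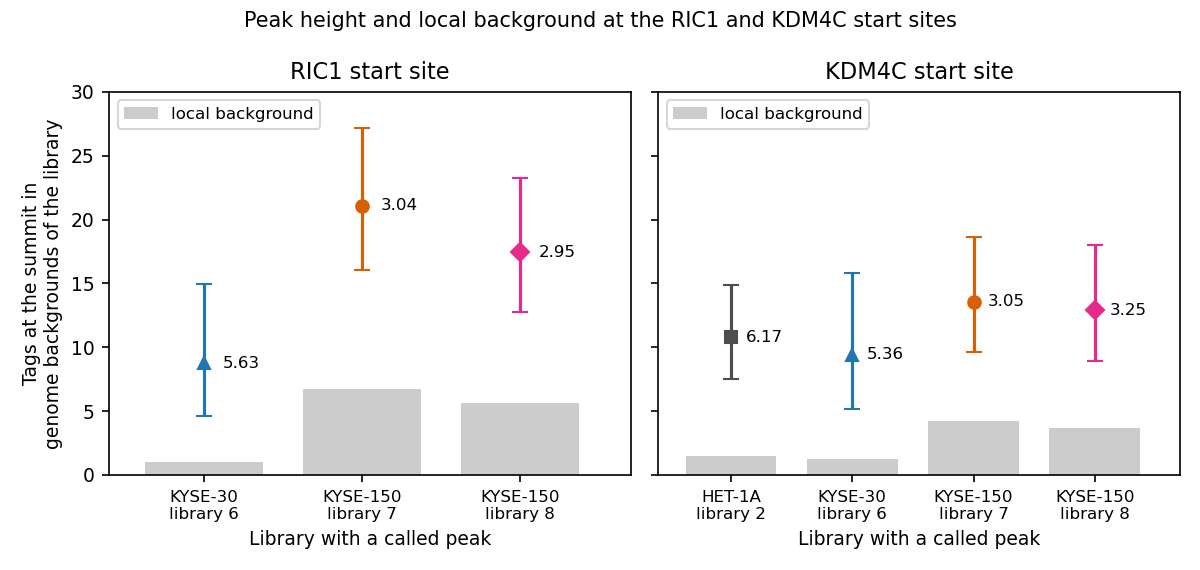
Height, in multiples of the library's genome background, of the start-site peaks of RIC1 and KDM4C by library, with exact Poisson 95% intervals. Grey bars are the local background on the same scale and the numbers the fold enrichments. Bars are tallest in KYSE-150, up to 6.70, and the KDM4C points sit between 9.41 and 13.6 in all 4 libraries.

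ERMP1 (ENSG00000099219, chr9:5749832-5879537, reverse strand) had a start-site peak in KYSE-150 library 7. It overlapped coding sequence, chr9:5832623-5832963, with its summit 295 bp inside the canonical transcript, 47 tags (34.5 to 62.5) over 16.7 and a q-value of 1.14e-05. Its fold enrichment of 2.71 was the lowest in the segment, and its height of 16.8 was at percentile 94.5 of the library. In HET-1A library 2 the peak counted for ERMP1 was in an intron of the neighbouring KIAA2026, 6.62 kb outside the ERMP1 gene model, with 20 tags (12.2 to 30.9) over 4 and a fold enrichment of 4.2.

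RANBP6 (ENSG00000137040, chr9:6011025-6015625, reverse strand) was counted as having a peak in KYSE-150 library 7 through a neighbour. That peak, chr9:6007618-6007886, had its summit 44 bp inside a coding transcript of KIAA2026 and 7.88 kb from the RANBP6 start. It had 50 tags (37.1 to 65.9) over 15.7, a fold enrichment of 3.05 and a height of 17.9. It is a KIAA2026 start-site peak by position, and no library had a peak at the start of RANBP6 itself.

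The local background at the KYSE-150 peaks of the segment was high, and on it the segment was chosen. The relative background of its 6 peaks in library 7 ran from 2.42 to 6.70 with a median of 5.07, and that of its 3 peaks in library 8 was 3.71, 3.96 and 5.67. In HET-1A library 2 it ran from 1.00 to 1.5 over 9 peaks with a median of 1.18, and in KYSE-30 library 6 from 1.00 to 1.21 over 7 peaks with a median of 1.06. The KYSE-150 values did not overlap those of the other lines. Outside the segment the medians of the libraries were closer, at 1.45 and 1.44 for these long lists and 1.39 and 1.70 for KYSE-150. A value of at least 4 was reached by 5 of the 6 segment peaks in library 7, against 4.76% of all its peaks, and by 1 of 3 in library 8, against 8.91%. Nearest to that limit were KDM4C in library 7, inside at 4.21, and the intergenic library 8 peak, outside at 3.96.

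**Figure D3:**
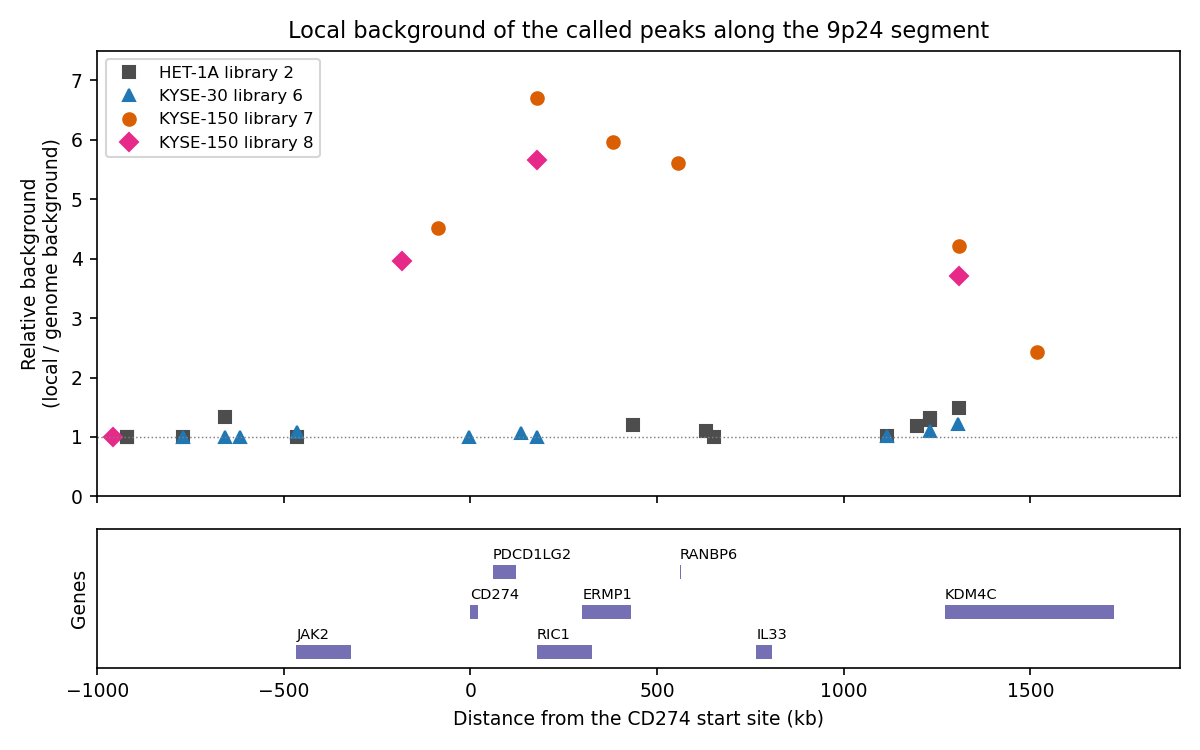
Relative background of each peak against distance in kb from the start of CD274, by library, with the genes drawn beneath. Peaks of both KYSE-150 libraries reach 5.67 and 6.70 at RIC1 and are lower to each side, and those of the other lines stay between 1.00 and 1.5 within the segment. The leftmost KYSE-150 point, at 1.00, is the library 8 peak in SLC1A1, outside the segment.

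Along the segment both KYSE-150 libraries had their highest value at RIC1 and lower ones to each side. From the PLGRKT intron the library 7 values were 4.52, 6.70 at RIC1, 5.97 at ERMP1, 5.61 at KIAA2026, 4.21 at the KDM4C start and 2.42 in its intron. Library 8 gave 3.96 in intergenic sequence, 5.67 at RIC1 and 3.71 at KDM4C. CD274 and PDCD1LG2 lie between the PLGRKT and RIC1 peaks of library 7, and no value was measured at either gene. The KYSE-150 peaks spanned 1.70 Mb. A peak adds its own tags to its surroundings. With the most it can add taken off, the medians were 4.69 and 3.72 in KYSE-150 and 0.993 and 0.792 in HET-1A library 2 and KYSE-30 library 6. The subtraction was not stopped at the genome mean, under which the local background cannot lie. The HET-1A and KYSE-30 medians are therefore too low.

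Beyond the segment, no KYSE-150 peak of chromosome 9 had a relative background of 4 or more. The highest was 2.1 in library 7 and 3.22 in library 8, the latter above the 2.42 of the KDM4C intron peak. In the other lines 14 peaks of HET-1A library 2 outside the segment reached 4 on this chromosome, up to 4.97, and 1 each in KYSE-30 libraries 4 and 6, at 5.13 and 4.45. Library 7 had 19 peaks on chromosome 9, and its 6 on the short arm were all in the segment, so the next peak to the right was 59.3 Mb away. Library 8 had 21, of which 6 were on the short arm and 3 in the segment. Its next peaks were 0.407 Mb to the left, at 1.00, and 30.8 Mb to the right, at 1.20. The ends of the stretch of high background are therefore not resolved on the right.

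Of 88 windows of 1 Mb with a peak in both KYSE-150 libraries, 3 reached 4 in both by the median of their peaks. On 9p24 the window from 5000001 to 6000000 had medians of 5.97 and 4.81, with 3 and 2 peaks. The window of chromosome 2 from 133000001 to 134000000 had 6.10 and 9.37, and that of chromosome 20 from 26000001 to 27000000 had 10.8 and 14.2. In those windows another line was also high, with medians up to 4.81 and 6.89, whereas on 9p24 the highest median of another line was 1.20. That last value rests on 1 HET-1A peak, as libraries 1 and 4 had none there.

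The share of a library's peaks that fell in the segment, which is 0.0743% of the genome, is given with a Wilson 95% interval for counting error. It was 1.10% in KYSE-150 library 7 (0.504 to 2.37) and 1.16% in library 8 (0.395 to 3.35). HET-1A library 2 had 0.0563% (0.0296 to 0.107) and KYSE-30 library 6 had 0.0600% (0.0291 to 0.124). Since the segment was picked from the KYSE-150 peaks, the shares are not set against its length as a test. With 0 peaks, HET-1A library 1 allows a share up to 1.79% and KYSE-30 library 4 up to 0.239% by a limit of 3 counts, and up to 2.24% and 0.305% by the Wilson interval.

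All 9 KYSE-150 peaks were low in fold enrichment and high in tags. Their fold enrichment was between 2.71 and 3.25, at percentiles 0.731 to 4.39 in library 7 and 3.86 to 13.9 in library 8. Heights ran from 8.22 to 21.1, at percentiles 67.8 to 96.0 and 78.0 to 89.2. Taking the local background off the summit, in units of the genome background, left a median excess of 10.1 and 9.19, against 5.62 and 6.59 for the other peaks of these libraries. In HET-1A library 2 the median excess was 5.40 in the segment and 5.96 elsewhere, and in KYSE-30 library 6 it was 7.74 and 9.71. A listed KYSE-150 peak needed a fold enrichment of at least 3.68 and 3.85 at the genome background but only 2.14 and 2.26 at 6 times it, so that a fold enrichment of 3 was not enough for a listed peak at the genome background. It also needed a height of 10 and 10.6 at 4 times the genome background, so the heights and excess here are partly set by the background on which the segment was chosen, and nothing is read from them.

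**Figure D4:**
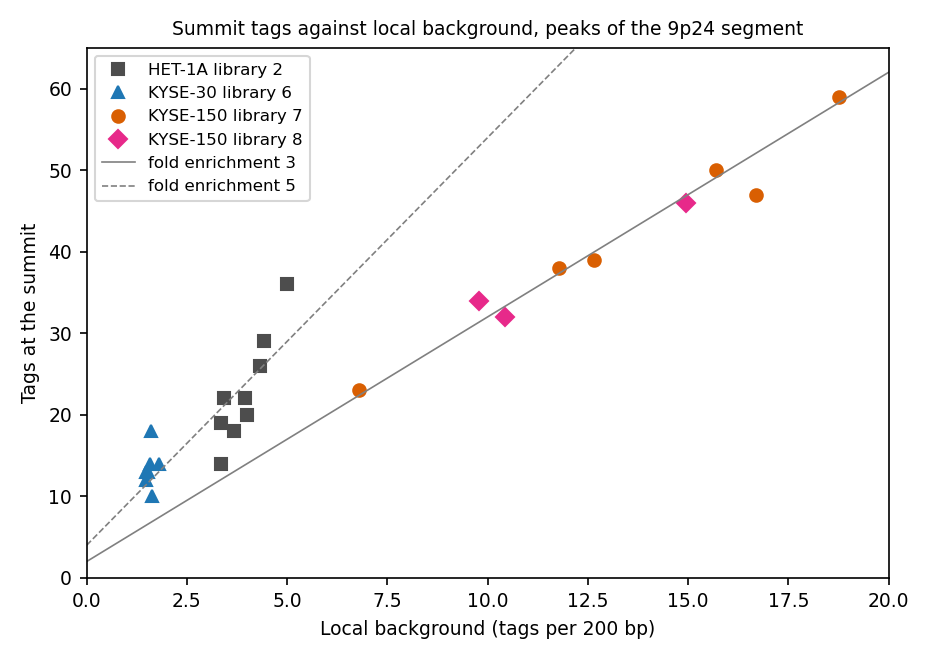
Summit tags against local background, in tags, of the segment's peaks by library, with lines for a fold enrichment of 3 and of 5. KYSE-150 peaks follow the lower line at backgrounds of 6.78 to 18.8 tags, and peaks of the other lines sit at 5.00 tags or less.

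Regions open in several libraries allow the same site to be compared. Of 23972 regions, 0.259% had a peak in both KYSE-150 libraries, 62 in number, and 2 of the 19 in the segment did, the starts of RIC1 and KDM4C. None of the 11 regions open in both KYSE-150 libraries and in no other line was here. KYSE-30 library 6 shared 27 regions with both KYSE-150 libraries. Over these the ratio of KYSE-150, as the mean of its libraries, to KYSE-30 had a median of 1.24 for the relative background, 1.14 for height and 1.04 for fold enrichment. RIC1 had 6.18, 2.2 and 0.532, which ranked highest in background, at place 6 in height and at place 2 from the lowest in fold enrichment. KDM4C had 3.27, 1.41 and 0.588, at place 3 in background, place 12 in height and place 3 from the lowest in fold enrichment. HET-1A library 2 shared 40 regions, and KDM4C had a ratio of 2.65 in background and 1.23 in height there, against medians of 1.25 and 1.37. These ratios in background and fold enrichment restate the choice of the segment and are given as values. The height ratios are partly set by it too. At 4 times the genome background a listed KYSE-150 peak needed a height of 10 and 10.6, so nothing is read from them.

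The long HET-1A and KYSE-30 lists had 2 regions of the segment in common, of 4543 in all, at the KDM4C start and within the lncRNA ENSG00000236924. The segment thus held 0.044% of the shared regions. It held 7 of 11399 regions (0.0614%) of HET-1A library 2 without KYSE-30 library 6, and 5 of 7099 (0.0704%) in the reverse case. With counts this small, nothing is read from the sharing. In the lncRNA, HET-1A had 2 peaks of 29 and 26 tags, with fold enrichments of 5.54 and 5.08, and KYSE-30 had 1 of 10 tags with 4.17. JAK2 was near a peak in both and yet shared no region, since its peaks did not touch.

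Of the other 10 coding genes of the segment, 3 had a peak within 10 kb in HET-1A library 2. There 51.1% of all protein-coding genes did. In KYSE-30 library 6 it was 2 of 10, against 41.6%. In KYSE-150 it was 2 of 10 in library 7, against 2.89%, and 0 of 10 in library 8, against 0.898%. HET-1A library 1 and KYSE-30 library 4 had 0 of 10, against 0.471% and 6.53%. These genes lie in the chosen segment, so nothing is read from the counts. INSL6, INSL4, RLN2, RLN1, TPD52L3 and UHRF2 had none in any library. PLGRKT had 1 in KYSE-30 library 6, the peak also counted for CD274, and 1 in KYSE-150 library 7, in its intron. GLDC, which encodes a subunit of the glycine cleavage system, had 2 peaks in HET-1A library 2, one 80 bp upstream of a coding transcript's start with a fold enrichment of 4.66 and one in an intron with 5.20. KYSE-30 library 6 had 1 in a GLDC exon, with 5.56. MLANA, a melanocyte antigen gene, had a peak within 10 kb in HET-1A library 2, and KIAA2026 had one in that library and in KYSE-150 library 7. The HET-1A peak of both is the same one that was counted for ERMP1. Of the nearest coding genes outside, RCL1 had 1 peak in HET-1A library 2 and 2 in KYSE-30 library 6, and DMAC1 had none.

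Some of the segment's peaks lay at start sites, and with so few peaks the counts are given as descriptions. A summit lay within 1 kb of a coding transcript's start in 4 of 6 segment peaks of KYSE-150 library 7 and 2 of 3 of library 8, where 45.5% and 11.2% of all peaks did. In HET-1A library 2 it was 4 of 9, against 32.8%, and in KYSE-30 library 6 it was 3 of 7, against 38.3%. The summit windows of 200 bp had a median G and C content of 66.8% and 71.0% in KYSE-150, 67.0% in HET-1A and 59.5% in KYSE-30, against 59.0%, 56.5%, 55.5% and 54.5% for the other peaks of the same libraries.

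Motifs were searched as letters on both strands of these windows. The AP-1 core (TGACTCA, or TGAGTCA, its reverse complement) was in 4 of 9 windows in HET-1A library 2, where 21.7% of all peaks held it, and in 2 of 7 in KYSE-30 library 6, where 26.1% did. It was in 0 of 6 and 1 of 3 in KYSE-150, against 4.02% and 3.86%. Windows at KDM4C held it in HET-1A and in KYSE-150 library 8. The SP1 box (GGGCGG) was in 3 of 9, 2 of 7, 3 of 6 and 1 of 3, where 29.2%, 28.3%, 33.3% and 17.4% of all peaks held it, and the RIC1 windows of all 3 libraries did. The interferon motifs were rare. The STAT site GAS (TTCNNNGAA) was in 1 KYSE-30 window, in GLDC, where 5.77% of all peaks of that library held it. The interferon-stimulated response element was in 1 intergenic HET-1A window, against 1.55%, and the CTCF core in the KYSE-30 window at JAK2, against 0.0343%. The windows at CD274 and KDM4C in KYSE-30 held none of the motifs searched.

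Genes of the same pathways elsewhere in the genome were open mainly in the long lists. Of 34 such genes, 25 (73.5%) had a peak within 10 kb in HET-1A library 2 and 0 in library 1. KYSE-30 had 17 (50%) in library 6 and 3 (8.82%) in library 4, and KYSE-150 had 1 (2.94%) in library 7 and 0 in library 8. Among all protein-coding genes the same shares, in the same order, were 51.1% and 0.471% (HET-1A), 41.6% and 6.53% (KYSE-30), and 2.89% and 0.898% (KYSE-150), so the 1 gene of library 7 is at the background. All 4 JAK kinases had one in HET-1A library 2, and JAK1 and JAK2 did in KYSE-30 library 6. The interferon gamma receptor gene IFNGR1 and the factor gene IRF1 were near a peak in both libraries. Of the 5 inhibitors of JAK signalling 4 had one in HET-1A library 2, with SOCS3 among them, and PTPN2 alone in KYSE-30 library 6.

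In the PD-1 axis of 7 genes, CMTM4 had a peak in both long lists, PDCD1 in that of HET-1A and CD274 in that of KYSE-30. CMTM4 stabilises PD-L1 protein. The IL-33 receptor subunit IL1RAP and the adaptor MYD88 were near peaks in both, and IL1RL1 in KYSE-30 library 6, while IL33 had none. Of the 4 KDM4 demethylases, KDM4A, KDM4B and KDM4C had one in the HET-1A list and all 4 in the KYSE-30 list. RAB6A had one in both, RGP1 and IPO4 in the HET-1A list, and IPO5 in the KYSE-30 list. KYSE-150 had KDM4C, RIC1 and the RANBP6-side peak of these lists, and IPO4, whose peak had a fold enrichment of 4.03 at a relative background of 1.15. In HET-1A library 2 and KYSE-30 library 6 the relative background at these 34 genes reached at most 3.22 and 3.16.

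EGFR, on which the study centred, is on chromosome 7. It had 7 peaks in KYSE-30 library 4 and 9 in library 6, at a median relative background of 10.1 and 13.5, 2 peaks in HET-1A library 2 at 1.00, and none in KYSE-150. Local background was thus high at EGFR in both KYSE-30 libraries and on 9p24 in both KYSE-150 libraries. KYSE-30 was near 1 on 9p24, and with no KYSE-150 peak at EGFR that line has no value there.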

How the data were processed

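ATAC-seq peak lists of 6 libraries from 3 cell lines were used, 2 libraries per line, grouped by the sample labels. The authors mapped reads to hg19 with Bowtie2 2.3.3.1, marked duplicates with Picard 2.2.1, removed blacklisted regions with bedtools 2.7.1, corrected for the Tn5 offset, retained fragments under 100 bp and ran MACS2 2.1.0.20160309 on each library (q-value 0.05, shift -100, extension 200, no control). Whether marked duplicates were removed is not given in the sources used here. The deposited lists give a score, a fold enrichment as a ratio, and both the p-value and the q-value as −log10. These describe a peak against its own library.

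Summit tags and local background were recovered as the whole number of tags whose Poisson p-value and fold enrichment match those listed, to 0.001 of −log10 p. All peaks of 4 libraries were recovered, 99.82% in KYSE-150 library 7 and 99.61% in library 8. The recovery was tested on 300 simulated peaks per library. Read totals are not analysed here, and the genome background, the lowest local background of a library, stands for depth. Genes came from GENCODE 44 on hg19 and overlap was counted from 1 bp. Python 3.11.15, numpy 2.4.6, scipy 1.17.1, pysam 0.24.0 and matplotlib 3.10.9 were used.

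The genes, lists and alternatives were chosen with earlier results of these data known. Genes named are the 8 members, the other coding genes of the segment, the nearest outside, the pathway lists and EGFR. No test between lines was run, since 2 libraries against 2 give no two-sided exact permutation p under 0.33. Alternatives were q-value limits of 0.01 and 0.001, an equal number of 168 peaks per library, other extensions of genes and segment, an overlap of 50%, other measures of the genome background, and each library left out. The authors' differential comparisons were not used. Some genes of the marker and pathway lists are not reported here.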

Additional observations from a re-analysis of the deposited data

How the results depend on the processing

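Of 98 alternative values, 78 stayed within the spread or within 1.5 times and 20 moved. The HET-1A and KYSE-30 shares of peaks, 0.0282% and 0.03% as means, were under their spreads of 0.0398 and 0.0424. A fall of these shares to 0 was therefore counted as staying. For the relative background of these lines the spread was that among the peaks of 1 library. The count of 78 is thus no measure of stability in these lines. Each HET-1A and KYSE-30 value rests on 1 library. Leaving out a library gave 0 to 3 members with a peak and 0 to 9 segment peaks in HET-1A, lowest without library 2, 0 to 4 and 0 to 7 in KYSE-30, lowest without library 6, and 2 to 4 and 3 to 6 in KYSE-150, lowest without library 7. With the 168 best peaks of each library, members and segment peaks were 0 in HET-1A and 0 in KYSE-30. Without extension of the genes, 2 members had a peak in KYSE-30. Against the median local background as the genome background, the segment's relative background was 0.811, 0.738 and 2.96 in HET-1A, KYSE-30 and KYSE-150 (1.18, 1.06 and 4.51 as reported, the mean of library medians). Without the peak's own tags, an alternative chosen after seeing the data, it was 0.993 and 0.792 in the first 2 lines. Both are under the genome mean because the subtraction was not stopped there. The KYSE-150 share of peaks, 1.13% as a mean, was 1.17% and 1.33% at q-values under 0.01 and 0.001, 1.79% with equal numbers and 1.32% with 500 kb added to each side. The KYSE-150 background stayed above that of the other lines in the alternatives that gave all lines a value. With equal numbers of peaks the other lines had none. The segment was chosen on this background, so nothing is read from its staying high. No paired analysis was possible because the lines share no library numbers and no value came from a test.

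The local background is known only at listed peaks, and short lists limit what is seen. HET-1A library 1 and KYSE-30 library 4 listed no segment peak, although the KDM4C heights in the other library of each line, 10.8 and 9.41, were over their limits of 5.31 and 4.65 at the genome background. Nothing was seen of JAK2, CD274, PDCD1LG2 or IL33 in KYSE-150 itself.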
